A study of Sus scrofa with 24 samples.

Results

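Cholesterol synthesis genes and their sterol-responsive regulators were followed across the ileum and colon of pregnant sows. The genes are HMGCS1, FDPS, FDFT1, SQLE and LSS, which encode enzymes of the pathway, and SREBF2 and INSIG1, which encode regulators of it. They were chosen by symbol from a list of 8. Of these, 7 have a row among the 20674 genes of the expression table, and the symbol IDI1 has none. The row LOC100625049 is described in the table as isopentenyl-diphosphate delta-isomerase 1 and is given apart from the 7.

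All sows were pregnant females (Sus scrofa) on 1 of 4 gestation diets, fed from breeding over the 114 days of gestation. The low-fibre diet (LF) had 3.73% crude fibre and LN was that diet with 0.05% N-carbamylglutamate (NCG). NCG mimics N-acetylglutamate, which switches on the first enzyme of the urea cycle. The high-fibre diet (HF) had 7.46% crude fibre and HN was that diet with 0.05% NCG. The trial had 100 sows per diet, and 3 libraries per diet were sequenced from ileum or colon samples, 24 in all in 8 groups. Whether libraries of 1 group stem from separate sows, or ileum and colon from the same ones, is not given in the labels. All p-values therefore measure the spread between libraries as labelled.

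Cells make cholesterol from acetyl-CoA through mevalonate, farnesyl diphosphate, squalene and lanosterol. When sterol in the endoplasmic reticulum is low, the escort protein SCAP carries SREBP-2 to the Golgi, where proteases release its active part, which switches on most genes of the pathway. INSIG proteins hold SCAP and SREBP-2 back when sterol is plentiful. In the intestine, enterocytes both absorb dietary cholesterol and make their own, and dividing crypt cells need sterol for new membranes.

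HMGCS1 encodes cytosolic HMG-CoA synthase, which makes the precursor of mevalonate (gene 100524223, Sscrofa11.1 chromosome 16, 27936225 to 27957261, minus strand). FDPS encodes farnesyl diphosphate synthase (gene 100153932, chromosome 4, 94500140 to 94514820, minus strand). FDFT1 encodes squalene synthase, the first step that is committed to sterols (gene 100312971, chromosome 14, 14976259 to 15010701, plus strand). SQLE encodes squalene epoxidase, a slow oxygen-dependent step (gene 100113409, chromosome 4, 14669789 to 14700152, minus strand). LSS encodes lanosterol synthase, which closes the sterol rings (gene 100625138, an unplaced scaffold, 519582 to 554042, plus strand). SREBF2 encodes SREBP-2 itself (gene 396675, chromosome 5, 6719484 to 6784724, minus strand). INSIG1 encodes the retention protein that is also a target of SREBP-2 (gene 403162, chromosome 18, 2885494 to 2898758, minus strand). No other annotated gene overlaps any of the 7.

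Library totals ran from 11951729 to 19896941 counts, and every one of the 7 genes had at least 179 counts in every library. Epithelial marker levels differed between libraries. The mean log2 CPM (read counts scaled to library size by TMM) of 12 epithelial markers was 3.19 in colon LF 2 and 4.07 in colon HN 1, against 7.32 to 9.42 in the other 10 colon libraries. Among the ileum libraries HN 2 had the lowest mean of these markers, 6.23, and LN 3 had an adipocyte marker mean of 8.80 against at most 2.32 in the other 11. Ileum markers averaged 2.28 to 7.62 in the ileum libraries and -2.52 to 1.55 in the colon libraries. Ileum LF 1 (7.62) and HF 2 (7.38) stood above the other ileum libraries, which had at most 5.13. Among the ileum libraries FABP6 had a count of 0 in some of LF, and SLC10A2 in some of LF, LN and HF. Colon markers averaged 0.64 to 3.37 in the ileum and 2.95 to 7.13 in the colon, with colon LF 2 and HN 1 at the low end. Colon LF 2 and HN 1 and ileum HN 2 and LN 3 are named beside the results that they touch.

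All 7 genes were expressed in both tissues. Per length, as FPKM (counts scaled by gene length and library total), FDPS had the highest mean in the ileum, 49.0 ± 21.4 (SD, n = 12). INSIG1 followed at 40.1 ± 19.1 and HMGCS1 at 38.7 ± 17.8. FDFT1 had 30.8 ± 13.3, SREBF2 29.8 ± 10.3, SQLE 18.2 ± 10.2 and LSS 13.7 ± 4.95 FPKM. Neighbours in this order differed by less than the larger of their SDs, except SREBF2 and SQLE. In the colon HMGCS1 came first with a mean of 79.1 ± 56.0 FPKM. FDPS had 60.6 ± 33.7, SREBF2 46.4 ± 19.0, FDFT1 37.0 ± 12.7, INSIG1 30.4 ± 16.3, SQLE 27.5 ± 16.0 and LSS 15.8 ± 8.39 FPKM. Neighbours in the colon order all differed by less than the larger of their SDs, and LSS was last in both tissues.

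Over the 8 groups the colon HF group had the highest mean CPM for all 7 genes. The lowest mean was in ileum HN for HMGCS1, FDPS, FDFT1 and SQLE, in colon HN for LSS and INSIG1, and in ileum LN for SREBF2. Groups next to each other in the order of means overlapped in their libraries for every gene, with 1 exception. SREBF2 in the 3 colon HF libraries (309.2 to 380.7 CPM) lay just above the 3 colon LN libraries (249.7 to 308.1 CPM). The range within a group was often as wide as the range between groups, as the plot of CPM by group shows.

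**Figure D1:**
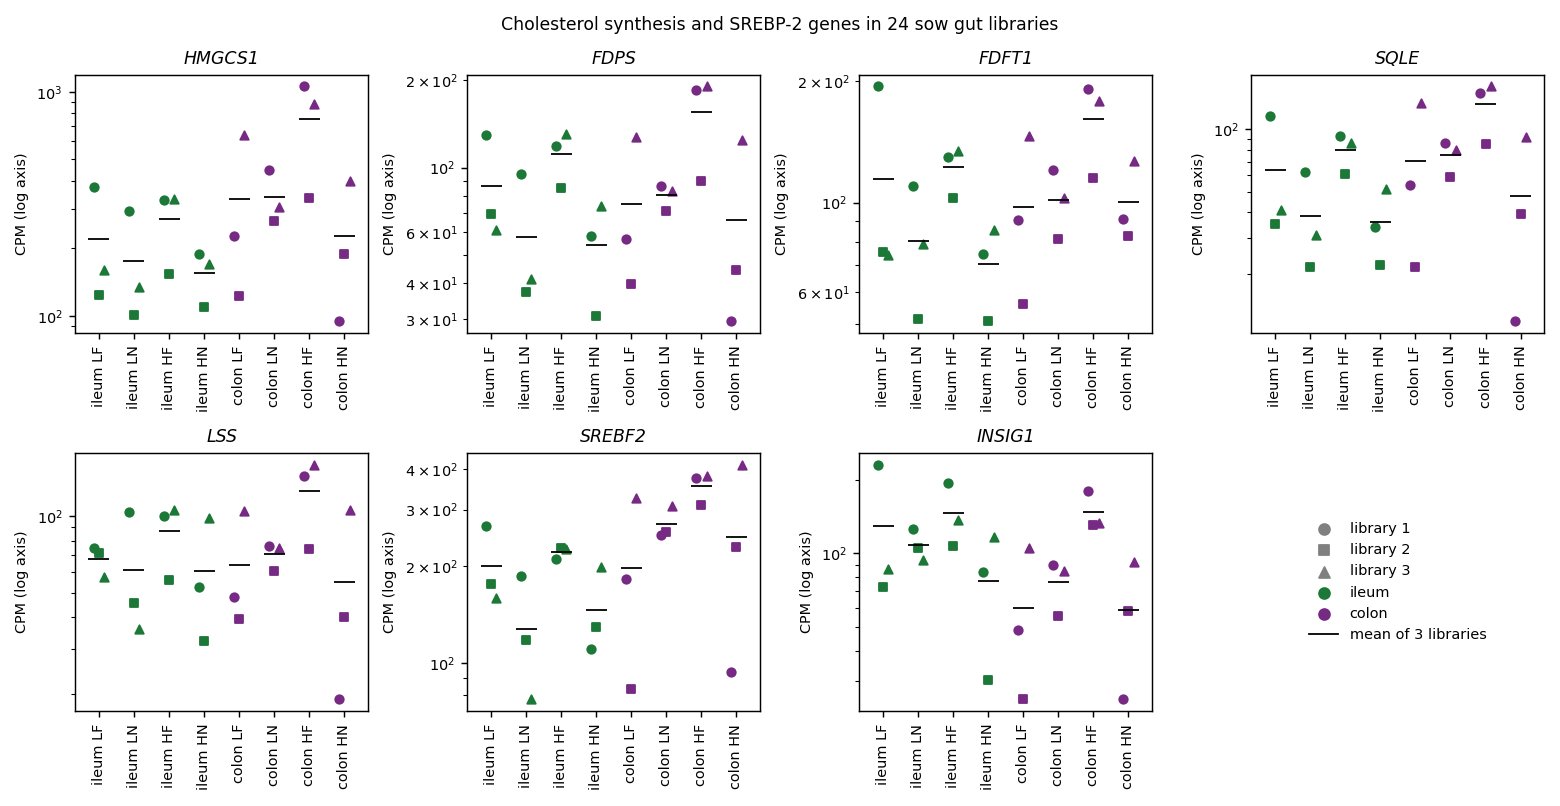
CPM of the 7 genes (log axis) in each of the 24 libraries by tissue and diet; points are libraries, shaped by library number and coloured by tissue, and lines are means of 3. Colon HF has the highest mean in all 7 panels, and colon LF 2 or colon HN 1 is the lowest colon library in each.

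In the ileum all 7 genes had lower fitted levels with NCG, averaged over the fibre levels, and none passed the test. SQLE, the oxygen-dependent step, had 115.8, 35.0 and 40.8 CPM in LF libraries 1 to 3 and 62.4, 21.6 and 30.9 CPM in LN. It had 92.9, 61.0 and 85.7 CPM in HF and 33.8, 22.1 and 51.3 CPM in HN. The HF and HN libraries did not overlap, whereas LF 1 stood far above the rest of LF and the LF and LN libraries overlapped. The log2 difference with NCG was -0.97 ± 0.37 (SE; edgeR quasi-likelihood test, adjusted p = 0.166).

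FDPS, the farnesyl step, had 129.0, 69.1 and 61.1 CPM in LF and 94.9, 37.3 and 41.4 CPM in LN. It had 118.5, 85.1 and 130.4 CPM in HF and 58.2, 30.8 and 73.6 CPM in HN. Again every HN library was below every HF library, and LF and LN overlapped. Its log2 difference with NCG was -0.83 ± 0.31 (adjusted p = 0.162).

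FDFT1, the squalene step, had 129.8, 102.9 and 134.2 CPM in HF and 74.7, 51.0 and 85.4 CPM in HN. Its LF libraries had 193.8, 75.6 and 74.0 CPM and its LN libraries 110.0, 51.6 and 78.9 CPM. As for SQLE, 1 LF library was high and the other pair of LF values lay within the LN range. Its log2 difference with NCG was -0.67 ± 0.28 (adjusted p = 0.202).

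SREBF2, the transcription factor, had 210.3, 227.2 and 227.0 CPM in ileum HF and 110.9, 129.2 and 198.5 CPM in HN. Its LF libraries had 267.5, 175.9 and 159.4 CPM and its LN libraries 187.3, 118.1 and 77.4 CPM. The HF libraries were close together and above all HN libraries, and LF and LN overlapped. Its log2 difference with NCG was -0.65 ± 0.23 (adjusted p = 0.146), the smallest adjusted p of the 7.

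For INSIG1, HMGCS1 and LSS the HF and HN libraries overlapped. INSIG1 in the ileum ran from 30.4 CPM in HN 2 to 230.6 CPM in LF 1, with a log2 difference with NCG of -0.60 ± 0.37 (adjusted p = 0.378). HMGCS1 ran from 101.5 CPM in LN 2 to 377.5 CPM in LF 1, with a log2 difference of -0.58 ± 0.36 (adjusted p = 0.392). LSS ran from 32.3 CPM in HN 2 to 105.6 CPM in HF 3, with a log2 difference of -0.35 ± 0.33 (adjusted p = 0.581).

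Counted together, 0 of 7 genes passed with NCG in the ileum, where 5.85% of 15103 tested genes passed. By edgeR 4 of the 7 had an unadjusted p under 0.05, as did 21.5% of all tested genes. DESeq2 and limma voom also called 0 of the 7, where they called 12% and 5.1% of tested genes. The median log2 difference of the 7 was -0.65, against -0.07 over all tested genes, of which 55.8% were negative. LOC100625049 had a log2 difference of -0.81 ± 0.33 (adjusted p = 0.188). Without ileum LN 3 and HN 2, the libraries with the high adipocyte and low epithelial means, the median of the 7 was -0.46, and without LF 1 it was -0.39. In a fit with the mean log2 CPM of the epithelial and of the smooth muscle markers as 2 covariates, the median was -0.75 and SREBF2 alone of the 7 passed, with a log2 difference of -0.96 (adjusted p = 0.0448). That fit called 14.8% of the 15103 tested genes.

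The fitted differences between HN and HF in the ileum were also negative for all 7 genes. For SQLE, FDPS, FDFT1 and SREBF2, 4 of the 7, every HN library lay below every HF library, and 5.83% of all tested genes showed this. The log2 differences were -1.22 ± 0.53 for SQLE, -1.09 ± 0.45 for FDPS, -0.85 ± 0.40 for FDFT1 and -0.66 ± 0.33 for SREBF2. HMGCS1, INSIG1 and LSS had -0.85 ± 0.52, -0.97 ± 0.53 and -0.57 ± 0.47. None of these passed the edgeR test (adjusted p = 0.572 to 0.783), and neither did any other gene (0% of 15103). DESeq2 and limma voom called 0 of the 7 as well, where they called 1.38% and 0% of tested genes. By edgeR 2 of the 7 had an unadjusted p under 0.05, where 8.07% of tested genes did. The summed CPM of the 12 epithelial markers was 5729 to 9899 in the HF libraries and 1558 to 8602 in HN. With the marker covariates the median of the 7 was -0.71, against -0.85 without them, and LSS was at 0.061.

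Between LN and LF in the ileum the log2 differences of the 7 genes ran from -0.72 (SQLE) to -0.14 (LSS). None passed by edgeR (adjusted p = 0.315 to 0.891), where 4.34% of tested genes did, and none of the 7 had LN below LF without overlap, which 11% of tested genes showed. With the marker covariates SREBF2 passed (adjusted p = 0.0372) in a fit that called 18.2% of tested genes. The difference between the NCG effects at high and at low fibre was negative for all 7, from -0.73 (INSIG1) to -0.01 (SREBF2), and none passed (adjusted p = 0.875 to 0.997; 0% of 15103 tested genes). Fibre itself had small fitted differences in the ileum, from -0.16 (INSIG1) to 0.17 (LSS) on the log2 scale, and 0 of 7 passed (adjusted p = 0.902 to 0.985; 0% of 15103 tested genes).

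**Figure D2:**
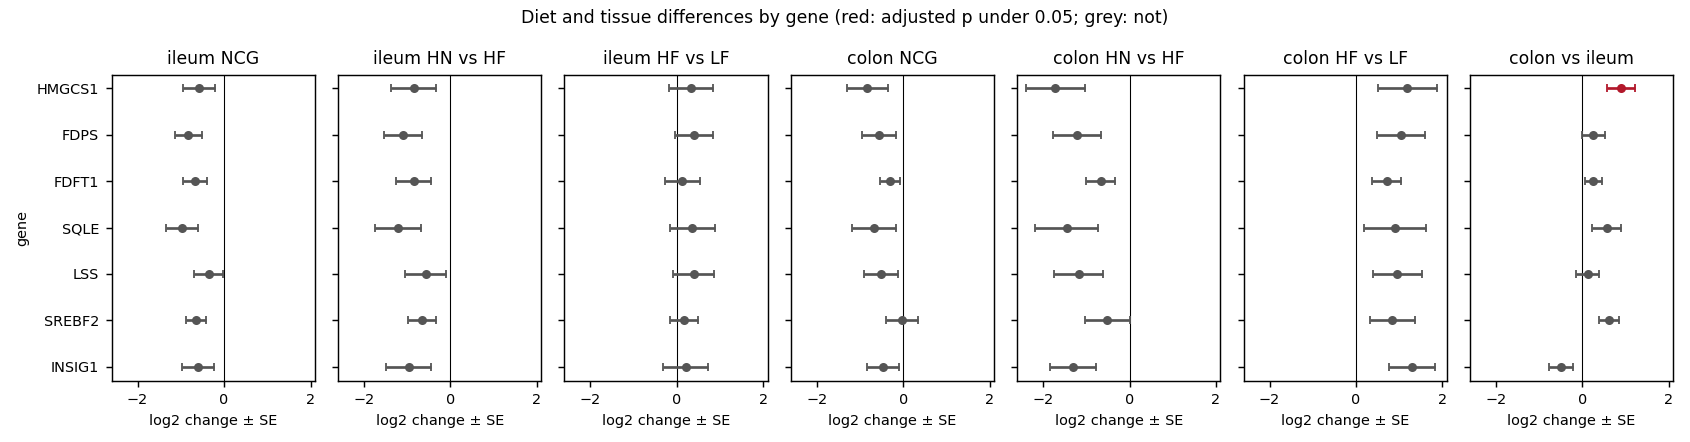
Log2 differences ± SE of the 7 genes in 7 comparisons, with red for an adjusted p under 0.05; NCG is the average over both fibre levels. The ileum and colon NCG and HN against HF values are all negative and the colon HF against LF values are all positive, and HMGCS1 in colon against ileum is the 1 value in red.

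In the colon the 7 genes were highest with the high-fibre diet without NCG, and again none passed the test between diets. HMGCS1, the entry to mevalonate, had 227.8, 123.2 and 641.4 CPM in colon LF libraries 1 to 3 and 448.2, 264.8 and 307.5 CPM in LN. It had 1057.5, 336.8 and 882.2 CPM in HF and 94.9, 188.6 and 401.7 CPM in HN. HF 1 and HF 3 were above every other colon library, and HF 2 was within the range of LF, LN and HN.

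INSIG1, the sterol-sensing brake, had 48.7, 25.3 and 105.4 CPM in colon LF and 89.5, 55.3 and 85.0 CPM in LN. It had 179.6, 130.8 and 132.7 CPM in HF and 25.3, 58.0 and 92.3 CPM in HN. All 3 HF libraries of INSIG1 were above the other 9 colon libraries. INSIG1 was the 1 gene of 7 whose HF and LF libraries did not overlap, as 16.5% of all tested genes did in the same direction. It was also the 1 of 7 with HN below HF without overlap, which 5.74% of tested genes showed.

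SQLE had 53.7, 21.8 and 134.7 CPM in colon LF, 86.2, 58.7 and 79.7 CPM in LN, 150.1, 84.6 and 161.5 CPM in HF and 11.9, 39.0 and 92.2 CPM in HN. SREBF2 had 182.2, 83.5 and 325.0 CPM in LF, 249.7, 255.8 and 308.1 CPM in LN, 375.0, 309.2 and 380.7 CPM in HF and 93.8, 230.2 and 413.4 CPM in HN. In both genes LF 2 and HN 1 were the lowest pair, LF 3 and HN 3 were far above the rest of their groups, and LF and HN overlapped with HF. FDPS ran from 29.6 CPM in HN 1 to 190.4 CPM in HF 3 and LSS from 19.1 CPM in HN 1 to 158.8 CPM in HF 3. FDFT1 had the narrowest range in the colon, from 56.2 CPM in LF 2 to 190.6 CPM in HF 1.

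With HF against LF in the colon, the log2 difference was 1.30 ± 0.53 for INSIG1, 1.19 ± 0.67 for HMGCS1 and 1.05 ± 0.56 for FDPS. It was 0.96 ± 0.57 for LSS, 0.91 ± 0.72 for SQLE, 0.84 ± 0.53 for SREBF2 and 0.71 ± 0.33 for FDFT1. By edgeR 0 of the 7 passed (adjusted p = 0.22 to 0.426), and 0% of 15075 tested genes did. Of the 7, 1 had an unadjusted p under 0.05, against 20.4% of tested genes. DESeq2 and limma voom called 0 of the 7, where they called 6.99% and 0% of tested genes. The median of the 7 was 0.96, against -0.01 over all tested genes.

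Epithelial and smooth muscle marker levels moved with this difference. Every one of these markers was detected in every library. The summed CPM of the 12 epithelial markers was 11318 to 15815 in the colon HF libraries, 174 to 11731 in LF, 6718 to 11626 in LN and 355 to 13826 in HN. The summed CPM of 10 smooth muscle markers was 1777 to 2559 in HF, 31510 to 116043 in LF, 1578 to 65975 in LN and 1697 to 107718 in HN. With both marker means as covariates the median of the 7 for HF against LF was 0.16, with LSS, SQLE and SREBF2 at -0.10, -0.14 and -0.06. Without colon LF 2 and HN 1 it was 0.72, and without LF 3 it was 1.66. In bulk tissue RNA, fewer cells of a type and less RNA per cell cannot be told apart.

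Adding NCG to the high-fibre diet gave negative log2 differences for all 7 genes in the colon. HMGCS1 had -1.72 ± 0.68, SQLE -1.45 ± 0.72 and INSIG1 -1.32 ± 0.53 in HN against HF. FDPS had -1.22 ± 0.56, LSS -1.18 ± 0.57, FDFT1 -0.67 ± 0.33 and SREBF2 -0.51 ± 0.52. None passed by edgeR (adjusted p = 0.391 to 0.632, where 0% of 15075 tested genes passed). DESeq2 and limma voom called 0 of the 7, where they called 0.431% and 0% of tested genes. Of the 7, 2 had an unadjusted p under 0.05, as did 12.7% of tested genes. The median of the 7 was -1.22, and it was -0.88 without LF 2 and HN 1, -0.76 with the marker covariates and -2.04 without HN 3. On the low-fibre diet NCG gave log2 differences of 0.05 (HMGCS1) to 0.47 (SREBF2), and none passed (adjusted p = 0.667 to 0.974; 0% of 15075 tested genes).

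The NCG effect at high fibre minus that at low fibre was negative for all 7 genes in the colon, from -1.77 ± 0.95 for HMGCS1 to -0.73 ± 0.47 for FDFT1. None of the 7 passed by edgeR (adjusted p = 0.33 to 0.464; 0% of 15075 tested genes). Of the 7, 1 had an unadjusted p under 0.05, against 15% of tested genes. Their median was -1.33, and it was -0.39 with the marker covariates, -0.68 without LF 2 and HN 1 and -2.16 without HN 3. Averaged over fibre levels, the NCG values in the colon ran from -0.83 ± 0.47 (HMGCS1) to -0.02 ± 0.37 (SREBF2), and 0 of 7 passed (adjusted p = 0.498 to 0.988; 0% of 15075 tested genes). Single omissions moved HMGCS1 between -1.17 and -0.38, the latter without LF 3. The median of the 7 for NCG in the colon was -0.51, and it was -0.24 without LF 3, -0.32 without HN 1 and -0.95 without HN 3. The average fibre effect in the colon ran from 0.13 (SQLE) to 0.46 (INSIG1), and 0 of 7 passed (adjusted p = 0.836 to 0.934; 0% of 15075 tested genes).

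The remaining diet pairs also had no gene of the 7 past the test. In the ileum HN against LF gave -0.86 (SQLE) to -0.18 (LSS) where 1.88% of genes passed, and HF against LF gave 0.13 (FDFT1) to 0.40 (FDPS) where 0% passed. HN against LN in the ileum gave -0.52 (INSIG1) to 0.15 (SREBF2), where 0.00662% passed. In the colon HN against LF gave -0.55 (SQLE) to 0.33 (SREBF2) and HN against LN gave -0.65 (SQLE) to -0.02 (FDFT1), where 0% passed. The difference of the NCG effect between colon and ileum ran from -0.29 (HMGCS1) to 0.59 (SREBF2), and that of the fibre effect from 0.02 (SQLE) to 0.62 (INSIG1). None of these tissue differences passed (adjusted p = 1; 0% of 15675 tested genes), so no diet effect on the 7 genes was shown to differ between tissues.

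Colon against ileum, over all diets, was the 1 comparison in which a gene of the 7 passed. HMGCS1 rose by 0.89 ± 0.32 on the log2 scale in the colon, a fitted 1.85-fold difference (edgeR adjusted p = 0.0421), where 28.4% of 15675 tested genes passed and 12.5% passed as higher in the colon. Its colon libraries ran from 94.9 to 1057.5 CPM with a median of 322.2, and its ileum libraries from 101.5 to 377.5 CPM with a median of 165.1. The ranges overlapped, with colon HN 1 below every ileum library. The call was lost in 14 of the 24 fits without 1 library (adjusted p = 0.0512 to 0.0821) and with limma voom (0.0682). These libraries were colon HF 1, HF 3, HN 3, LF 3 and LN 1, and ileum HF 1, HF 2, HN 1, HN 2, HN 3, LF 2, LF 3, LN 2 and LN 3.

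SREBF2 had a log2 difference of 0.62 ± 0.23 (adjusted p = 0.0508), just outside the threshold. Its colon libraries ran from 83.5 to 413.4 CPM with a median of 282.0 and its ileum libraries from 77.4 to 267.5 CPM with a median of 181.6. SREBF2 passed without colon LF 2 and HN 1 (0.83, adjusted p = 0.00163), and SQLE then passed too (0.80, adjusted p = 0.037) and HMGCS1 kept its call (1.10, adjusted p = 0.0101), in a fit that called 25.3% of tested genes. No gene of the 7 passed without ileum LN 3 and HN 2, when HMGCS1 had 0.80 (adjusted p = 0.083) and 33.2% of tested genes passed.

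The other genes did not pass between tissues. SQLE had 0.56 ± 0.33 with all libraries (adjusted p = 0.217), FDFT1 0.25 ± 0.19 (0.348), FDPS 0.26 ± 0.26 (0.4996) and LSS 0.12 ± 0.27 (0.776). INSIG1 was the only one of the 7 with a negative value, -0.50 ± 0.27 (adjusted p = 0.184). The median of the 7 was 0.26, against -0.03 over all tested genes. It was 0.44 without colon LF 2 and HN 1, 0.50 with the marker covariates, 0.42 without ileum LF 1 and 0.40 without ileum LN 1. The 12 colon and 12 ileum libraries of each gene overlapped, as those of all but 0.434% (colon higher) and 1.03% (colon lower) of tested genes did.

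The 7 genes varied together from library to library. Over the 12 ileum libraries the 21 pairs had Pearson r from 0.545 (SREBF2 with INSIG1) to 0.974 (SQLE with FDFT1), with a median of 0.818, and Spearman rho from 0.629 to 0.965. Of these, 20 passed a permutation test of r after adjustment over 42 pairs (adjusted p = 4.67e-05 to 0.0673) and 21 passed for rho (adjusted p = 8.40e-05 to 0.0319). In the colon r ran from 0.775 to 0.985 (FDPS with LSS), with a median of 0.920 and rho from 0.818 to 0.993, and all 21 passed for both (adjusted p up to 0.00274 for r and 0.00236 for rho). Taken over all pairs of tested genes, ileum r had a median of -0.011 and colon r of -0.003. The lowest r of the 21 pairs was reached by 11.8% of all gene pairs in the ileum and 9.25% in the colon, and their median r by 1.69% and 1.59%. Leaving out the 2 farthest libraries gave r of 0.475 to 0.967 in the ileum and 0.611 to 0.996 in the colon. Deviations from the diet means had r of 0.527 to 0.972 and 0.723 to 0.981, so the genes also moved together among libraries of 1 diet. All 7 levels in a library share its depth scaling and tissue make-up.

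Pairs with SREBF2 had a lower median r than pairs without it. Its 6 pairs had a median r of 0.739 in the ileum and 0.874 in the colon, against 0.828 and 0.930 for the 15 pairs without it. This contrast is a description and was not tested. As a mean of the 7 z-scores within each tissue, ileum LF 1 (1.37) and colon HF 1 (1.31) were highest and ileum HN 2 (-1.49) and colon HN 1 (-1.66) lowest.

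**Figure D3:**
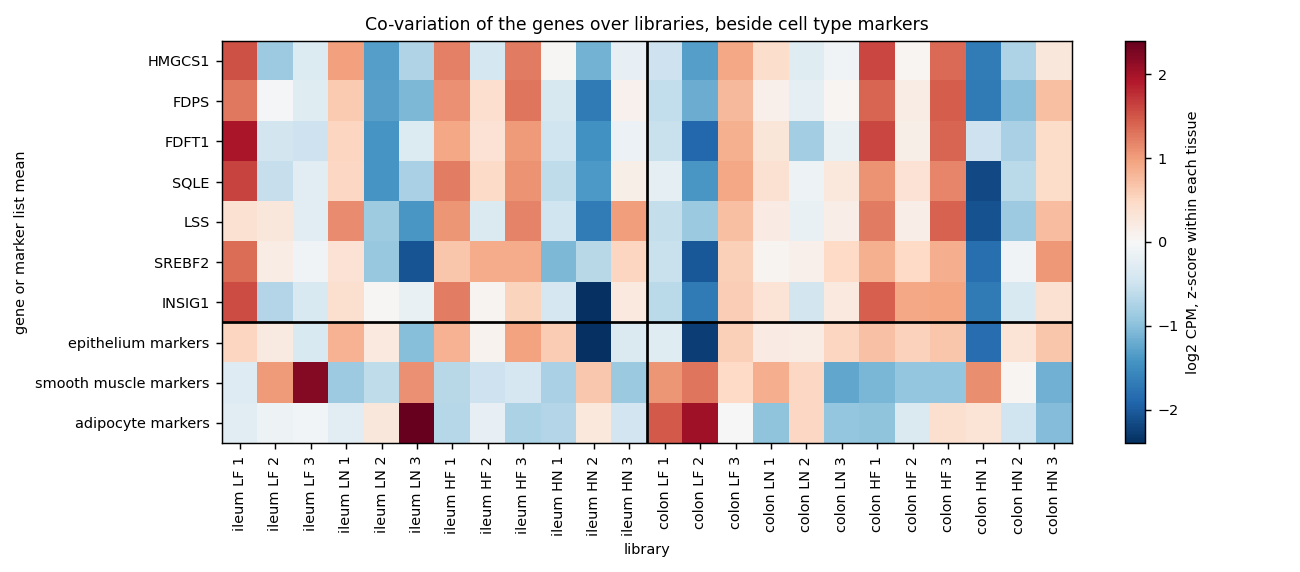
Log2 CPM of the 7 genes and mean log2 CPM of 3 marker lists, as z-scores within each tissue (colour), in the 24 libraries (columns). Colon LF 2 and HN 1 are blue for all 7 genes and for epithelial markers and red for smooth muscle, and ileum LF 1 is red for all 7 genes.

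Epithelial marker levels varied with the 7 genes. Because colon LF 2 and HN 1 stood apart, r was taken within the other 10 colon libraries. There SREBF2 had r = 0.938 with the mean of the 12 epithelial markers (rho = 0.903), and INSIG1 had r = 0.816 (rho = 0.915). Both passed a permutation test of r adjusted over 28 relations (adjusted p = 0.00308 and 0.0322). The 5 other genes had r from 0.653 (HMGCS1) to 0.746 (LSS), which did not pass (adjusted permutation p = 0.0586 to 0.0702), and rho from 0.794 to 0.879, which did (0.0104 to 0.0269). In the ileum r over 12 libraries ran from 0.484 (SREBF2) to 0.791 (INSIG1), rho from 0.427 to 0.727, and 6 of 7 passed for r (adjusted permutation p = 0.00682 to 0.148) and 3 for rho (0.0302 to 0.225). Without ileum HN 2 and LN 3 the ileum r was 0.152 (SREBF2) to 0.671 (HMGCS1) and 0 of 7 passed (adjusted permutation p = 0.0702 to 0.696). HMGCS1 had 0.652 over 12 libraries and 0.671 over 10, and the r of the other genes was lower over 10.

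Smooth muscle markers ran the other way. Their r with the 7 genes was -0.793 (SREBF2) to -0.610 (HMGCS1) in the colon, with rho -0.804 to -0.566, and 6 of 7 passed for r (adjusted permutation p = 0.00245 to 0.0538). For rho 3 of 7 passed, SREBF2, INSIG1 and LSS (adjusted permutation p = 0.00798, 0.0321 and 0.0466). Without colon HN 3 and LN 3 the colon r was -0.840 to -0.686, and 1 of 7, INSIG1, passed for r (adjusted permutation p = 0.0322). For rho INSIG1, SREBF2, FDPS and HMGCS1 then passed (adjusted permutation p = 0.00658, 0.0132, 0.0303 and 0.0430). SQLE, LSS and FDFT1 did not (0.0505 to 0.0928). Colon LF 2 and HN 1 had the highest smooth muscle marker means, 12.94 and 12.54, and stayed in both sets of colon libraries. The r with smooth muscle markers without LF 2 and HN 1 was not taken. In the ileum r was -0.461 to -0.339 with rho -0.406 to -0.203, and 0 of 7 passed (adjusted permutation p = 0.165 to 0.283). Without ileum LF 3 and LN 3 it was -0.601 to -0.111. The share of all tested genes with such r to the marker means is not given here. These counts therefore cannot be set against those of other genes. The part of epithelial content in the differences between diets was not tested beyond the fit with covariates.

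**Figure D4:**
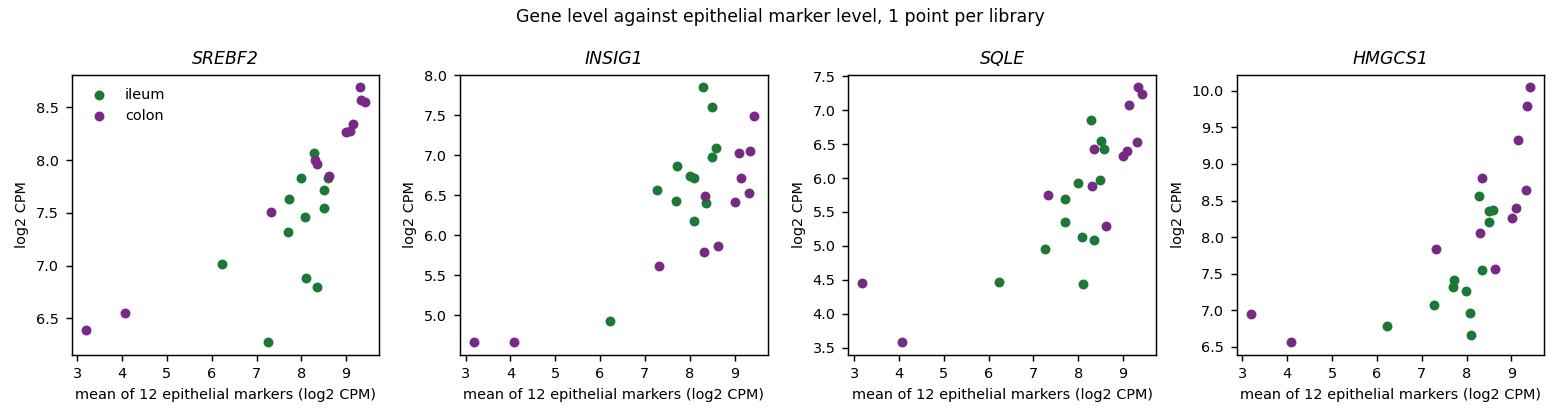
Log2 CPM of SREBF2, INSIG1, SQLE and HMGCS1 against the mean log2 CPM of 12 epithelial markers, 1 point per library, ileum in green and colon in purple. The colon points at epithelial means of 3.19 and 4.07 are low in all 4 panels, and SREBF2 rises almost in a line through the colon points.

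Genes most like the 7 were ranked by r over 12 libraries between their log2 CPM and the mean z-score of the 7, as a description. LOC100625049 came first of 15096 in the ileum (r = 0.963), and EBP (0.952), MVD (0.949) and ACAT2 (0.934) followed. In the colon MSMO1 (0.991), DHCR7 (0.990), FABP1 (0.982), CYP51 (0.980) and RTN4IP1 (0.979) led 15068 genes. LOC100625049, MVD, EBP and ACAT2 also led when each gene was ranked by the smaller r of both tissues. By colon r alone these genes ranked 48, 65, 220 and 64 of 15068. The colon r included LF 2 and HN 1. GGPS1 stood at the other end, with r of -0.837 in the ileum and -0.904 in the colon.

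The rest of the pathway was read from a list of 14 other cholesterol synthesis genes, of which 13 were tested under the listed symbol. CYP51A1 has no row by that symbol. It stands in the table as CYP51 and is outside the counts, with log2 differences of -0.45 for NCG in the ileum (edgeR adjusted p = 0.422), 1.05 for HF against LF in the colon (0.253) and 0.49 in colon against ileum (0.137). Their fitted differences mostly had the signs of the 7. With NCG in the ileum 12 of 13 were negative with a median of -0.66 and 0 passed by edgeR. Of the 13, 5 had an unadjusted p under 0.05, against 21.5% of tested genes. ACAT2, the thiolase at the start, had -1.06 (adjusted p = 0.149) and MVD, which makes isopentenyl diphosphate, -0.66 (0.191). With HF against LF in the colon 11 of 13 were positive with a median of 0.76, and 0 passed. Over all tested genes 7488 of 15075 were positive there. An unadjusted p under 0.05 was seen for 2 of the 13, against 20.4% of tested genes. MVK, mevalonate kinase, had 1.40 (adjusted p = 0.211), whereas GGPS1, which makes geranylgeranyl diphosphate for protein prenylation, had -0.47 (0.265). With HN against HF in the colon 11 of 13 were negative with a median of -0.83 and 0 passed, where 7775 of 15075 tested genes were positive. Here 5 of the 13 had an unadjusted p under 0.05, against 12.7% of tested genes. In colon against ileum HSD17B7, a sterol ketone reductase, was the 1 of 13 that passed, where 28.4% of tested genes did, and it fell by 0.73 ± 0.24 (adjusted p = 0.0294). Its mean was 32.5 ± 12.3 CPM in the ileum and 19.7 ± 8.62 CPM in the colon (SD, n = 12).

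The machinery that processes SREBP had no gene past the test in any comparison. Its 7 genes had a median log2 difference of 0.16 with NCG in the ileum and -0.07 for HF against LF in the colon. With NCG in the ileum 3 of them had an unadjusted p under 0.05, against 21.5% of tested genes. For HF against LF in the colon 1 of them did, against 20.4% of tested genes. MBTPS1, the site-1 protease, had -0.42 with NCG in the ileum (adjusted p = 0.098), SREBF1, which encodes SREBP-1, 0.67 (0.223) and RNF139, a ubiquitin ligase, 0.78 (0.231). In colon against ileum SREBF1 had -0.48 (adjusted p = 0.0668) and SCAP -0.22 (0.106). Their median was -0.19, with 3 positive and 4 negative values and 2 at an unadjusted p under 0.05, against 40.1% of tested genes.

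Several sterol transport genes differed between the tissues. Of 13 transport and storage genes, 7 fell and 1 rose in the colon, where 15.9% of all tested genes fell and 12.5% rose. NPC1L1, the cholesterol importer of the brush border, had 16.8 to 210.4 CPM in the 12 ileum libraries (median 135.3) and 0 to 4.99 CPM in the colon (median 0.332). ABCG5, which with its partner pumps sterols back into the lumen, ranged over 8.43 to 145.2 CPM in ileum libraries and was at most 3.19 CPM in colon ones. ABCG8, that partner, had 10.2 to 140.2 CPM in the ileum and a count of 0 in 9 of 12 colon libraries, with a maximum of 2.39 CPM. For all 3 genes the highest colon value was in HN 1, and a count of 0 allows up to 0.151 to 0.251 CPM in a library.

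SOAT2, which esterifies cholesterol, averaged 39.0 ± 16.0 CPM in the ileum and 3.87 ± 2.33 CPM in the colon (SD, n = 12), and fell by 3.45 ± 0.36 (adjusted p = 1.46e-06). SCARB1, a lipoprotein receptor, fell by 1.85 ± 0.26 (adjusted p = 3.80e-05), LIPA by 0.66 and STARD3 by 0.52, and NPC2, a lysosomal cholesterol carrier, rose by 0.35 (adjusted p = 0.0355). Of 4 genes of sterol sensing by LXR, LPCAT3, a phospholipid acyltransferase, fell by 1.02 and NR1H3, which encodes LXR-alpha, fell by 0.61. In the diet comparisons 0 genes of these lists passed by edgeR. ABCA1, the sterol exporter, had 0.83 with NCG in the ileum (adjusted p = 0.0728).

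Fatty acid synthesis genes, mostly targets of SREBP-1, were higher in the colon for 7 of 8, against 12.5% of all tested genes. SCD, the stearoyl-CoA desaturase, rose by 2.72, THRSP by 3.77, ME1 by 2.38, FASN by 1.25, ACSS2 by 1.19, ELOVL6 by 1.02 and ACACA by 0.67. ACLY had a value of 0.39 that did not pass (adjusted p = 0.187). SCD ran from 81.0 to 1843 CPM in the colon, highest in LF 2, and from 36.0 to 207.5 CPM in the ileum, highest in LN 3. Those libraries had the highest adipocyte marker means of their tissues, 6.56 and 8.80, and the part of adipose tissue in the difference was not tested. The adipocyte markers summed to 66.8 to 1027 CPM over the colon libraries and 19.5 to 4553 CPM over the ileum libraries, where LEP had a count of 0 in some libraries of each diet and ADIPOQ in some of HF.

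**Figure D5:**
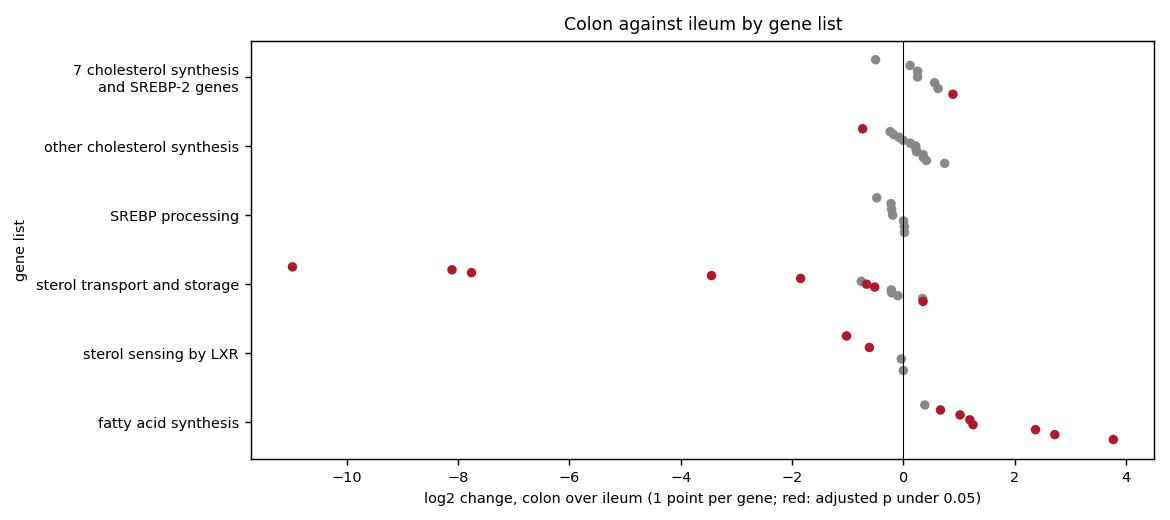
Log2 difference of colon over ileum for each gene of 6 lists, 1 point per gene, red where the adjusted p is under 0.05. The 7 genes lie between -0.50 and 0.89, while transport genes reach far to the left; ABCG5, ABCG8 and NPC1L1 have colon libraries at 0, so their fitted values depend on the fit and are no measure of size.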

How the data were processed

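Poly(A) RNA from 12 ileum and 12 colon samples was sequenced in paired-end mode. The deposited table holds raw read counts per gene, made by the authors with fastp 0.22.0, HISAT2 2.1.0 and HTSeq 0.9.1 on Sscrofa11.1, per the submitters' processing notes, with no settings or strand option given. It also holds FPKM values by the authors, which equal counts scaled by gene length and library total to within a relative 2.10e-07 and were used for levels between genes. Gene length, a further deposited column in bases per the file headers, has another unit and served only to check the FPKM.

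Counts were tested in R 4.3.3 with edgeR 4.0.16 (filterByExpr, TMM, quasi-likelihood F-test), with 4 diet means per tissue or 8 group means over 24 libraries, and Benjamini-Hochberg adjustment over all tested genes. A gene passed at an adjusted p under 0.05. Log2 CPM used a prior count of 2. An SE is the log2 difference divided by the square root of F. Correlations used 100000 permutations (two-sided). Alternatives were RLE scaling, DESeq2 1.42.0, limma voom 3.58.1, no filter, a replicate block, 2 marker means as covariates, fits of 6 libraries and the omission of single libraries. The omissions of 2 libraries together were added after seeing the data. The tests were also run on simulated counts with the same dispersion for every gene. Those counts had no outlying libraries like the ones seen here.

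The 7 genes, the lists and the markers were chosen with earlier results of these data known. All 7 are given in every comparison. List genes are named where they passed, or by their smallest p, and 5 genes per ranking were named as most like the 7, and 1 of these and 1 list gene are not reported here. Of 128 list and marker genes, 122 have a row by the listed symbol, and CYP51A1 stands in the table as CYP51. The limit of 3 counts for a count of 0 covers counting error only.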

Additional observations from a re-analysis of the deposited data

How the results depend on the processing

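The number of the 7 genes called in colon against ileum, 1 as reported, was 2 with RLE scaling, DESeq2, no filter on low counts or the marker covariates, 3 without colon LF 2 and HN 1, and 0 with limma voom or without ileum LN 3 and HN 2. These fits called 28.1%, 34.1%, 23%, 18.9%, 25.3%, 24.3% and 33.2% of tested genes in that order, against 28.4% as reported. Over the omissions of 1 library it was 0 to 2. A block of diet and replicate number, which joins the ileum and colon library of 1 diet and number, gave 0 of the 7. HMGCS1 then had an adjusted p of 0.0548, and 19.1% of tested genes were called. The deviations of such pairs from their group means had r of -0.368 to 0.307 with a median of 0.052. Pairs of 1 diet with other numbers had r of -0.346 to 0.363 with a median of -0.066. Within a tissue the block was the replicate number. Same-numbered libraries there had r of -0.517 to 0.702 in the ileum and -0.503 to 0.809 in the colon. In each tissue 4 of 12 libraries correlated best with their own number. Whether a number stands for 1 sow is not given in the labels. Neither block changed another call. With the marker covariates 1 gene, SREBF2, was called for NCG and for LN against LF in the ileum, against 0 as reported, and these fits called 14.8% and 18.2% of tested genes.

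Signs of single genes were compared between fits for NCG and HN against HF in each tissue and for colon against ileum. In the colon they were also compared for HF against LF and the interaction. In these comparisons, outside the single omissions, 6 values of single genes changed sign. With the marker covariates the log2 differences for colon HF against LF were -0.10 (LSS), -0.14 (SQLE) and -0.064 (SREBF2), the colon interaction of SREBF2 was 0.050, and LSS was 0.061 for ileum HN against HF. LSS in colon against ileum was -0.023 without ileum LN 3 and HN 2, and -0.10 to 0.27 over single omissions. SREBF2 with NCG in the colon was -0.32 to 0.26 over single omissions. In the other comparisons only the median of the 7 was followed. Over all alternative fits it was -0.22 to 0.78 for ileum HF against LF and -0.35 to 0.95 for colon LN against LF. The cause of these changes of sign was not tested. No gene of the 7 passed between diets in any omission of 1 library. With 3 libraries a group, an adjusted p above the threshold does not show that levels were alike.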
